A study of Mus musculus with 6 samples.

Results

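Aminoacyl-tRNA synthetases load each amino acid onto its transfer RNA and so supply the ribosome with charged tRNA. One gene set encodes the enzymes of the cytosol, another, mostly with symbols ending in 2, the enzymes imported into mitochondria, where they serve the few proteins encoded by mitochondrial DNA. The genes of many cytosolic enzymes are known targets of ATF4, the transcription factor of the amino acid response, which is translated when uncharged tRNA activates the kinase GCN2. The list examined held 36 genes, 20 cytosolic and 16 mitochondrial, listed by symbol as members of the family. A probe set annotated with a single gene symbol was found for 34 of them, among 19938 genes so named in all. Aars shared its only probe set with Exosc6, and no listed probe set carried the name Dars, so these alanine and aspartate enzymes were left out. The other 18 cytosolic and all 16 mitochondrial genes passed the filter on dim genes, which left 13956 genes for testing.

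The arrays measured RNA of dendritic cells grown from mouse bone marrow, and the study's question was whether such cells differ in recipients of marrow from a mouse with ultraviolet (UV)-irradiated skin. Female C57BL/6J mice received 2000000 marrow cells from a congenic B6.SJL-Ptprca donor, a strain whose leukocytes bear the CD45.1 alloantigen in place of CD45.2. Donors were either naive or had been given broadband UV, up to 8 kJ/m2, on shaved dorsal skin at an age of 6 to 10 weeks. The recipients' age, any conditioning before the transfer and the share of donor cells in the cultures are not given in the sources used here. In both groups recipient marrow was grown for 5 days in 10 ng/ml of the cytokine GM-CSF and 10 ng/ml of IL-4, and CD11c+ cells were enriched with magnetic beads to above 95%. Each group had 3 arrays, called naive-donor and UV-donor replicates 1 to 3. The labels speak of triplicate preparations without saying that they came from separate mice, so the error behind each p-value may be technical only.

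The median log2 signal of an array was 7.16 to 7.23, and arrays correlated at 0.995 to 0.997 within groups and at 0.995 to 0.996 between them. The enriched antigen itself, Itgax (CD11c), read 13.71 to 13.79 on the 6 arrays. Of 12 dendritic cell markers 11 passed the dim filter (9 higher in value in the UV-donor group, 1 called). So did 4 of 7 measured markers of B and plasma cells, 3 of 7 of T and NK cells and 6 of 8 of progenitors. All 13 neutrophil, 10 macrophage and 5 measured erythroid and platelet markers passed too, so passing does not set dendritic cells apart from these. Markers of other cells differed in value between the groups. Over all tested genes limma called 0.172% (adjusted p under 0.05), all higher. At an unadjusted p under 0.05 limma gave 9.6% of them higher and 5.49% lower. Of 13 neutrophil markers 10 were higher in value in UV-donor arrays and 2 were called, with a list mean (log2 values centred on each gene's mean) of -0.25 to -0.09 on naive-donor and 0.08 to 0.25 on UV-donor arrays. All 19 tested proliferation genes were higher in value, 18 of them at an unadjusted p under 0.05 and none called by limma, and their mean ran from -0.40 to -0.04 and from 0.09 to 0.53. Macrophage markers went both ways. Of 10, 6 were higher (1 called, 4 at that unadjusted level) and 4 lower (0 called by limma, 1 at that level), among them Cd5l, a secreted macrophage protein, at -1.0 with groups that did not overlap (limma adjusted p = 0.0627). Of the macrophage markers 4 were higher and 2 lower without overlap, beside 12.4% and 9.37% of all tested genes. Their mean ran from -0.06 to -0.03 and from -0.01 to 0.08, and that of progenitor markers from -0.19 to -0.05 and from 0.09 to 0.12 (6 of 6 tested higher, 2 at that unadjusted level, none called by limma). By limma, erythroid and platelet markers (3 of 5 higher), B and plasma cell markers (3 of 4) and T and NK cell markers (2 of 3) held no called gene, with 2, 0 and 0 at the unadjusted level. The part of these cells in the results below was not tested. In such bulk RNA, fewer cells of a type and less RNA per cell cannot be told apart.

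Several cytosolic synthetase genes carry the core of the amino acid response element, the sequence through which ATF4 acts with C/EBP partners. The letters TGATGNAA were searched on both strands of RefSeq windows (GRCm38.p6) from 250 bases before to 50 bases after annotated starts. They occurred in 1304 of 32851 windows, or 3.97%. Of 11 measured cytosolic genes with a window used here 4 held a match, Gars, Iars, Tars and Yars. Of 14 mitochondrial genes with a window used none held one, in 15 windows. Hars, Lars, Nars and Hars2 were not searched, because synthetase windows on their chromosome were dropped. The count over all windows kept that chromosome. The matches are shown on the gene's strand with 10 flanking bases a side and the match in capitals, which reads TTNCATCA where it lies on the opposite strand. Asns, the asparagine synthetase gene and a textbook ATF4 target, is given for comparison.
Gars: ggctgcgctaTTTCATCAtgcaccgggc
Iars: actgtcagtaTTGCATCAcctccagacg
Tars: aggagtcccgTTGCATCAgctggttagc
Yars: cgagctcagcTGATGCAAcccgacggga
Asns: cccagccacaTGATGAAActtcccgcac
Their positions are chr6:55037961-55037988 for Gars, chr13:49682127-49682154 for Iars, chr15:11399656-11399683 for Tars (minus strand), chr4:129189896-129189923 for Yars and chr6:7693215-7693242 for Asns (minus strand). The first matching base lay 30 bases before the start in Gars, 15 in Tars and 23 in Asns, and 7 bases after it in Iars and 3 in Yars. A match describes letters and is not shown to be a bound site.

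The Gars window is shown in full up to the start because this gene encodes both the cytosolic and the mitochondrial glycyl-tRNA synthetase. It covers chr6:55037751-55038000 on the plus strand, 250 bases, with the match in capitals near its end.
Gars: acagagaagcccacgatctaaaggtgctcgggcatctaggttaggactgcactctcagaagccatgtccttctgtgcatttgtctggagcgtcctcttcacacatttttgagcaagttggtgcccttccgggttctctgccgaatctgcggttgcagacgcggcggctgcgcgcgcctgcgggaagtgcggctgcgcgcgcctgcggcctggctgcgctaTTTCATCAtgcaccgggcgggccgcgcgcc
Other motifs were searched in the same way. The ETS core CCGGAAG lay in 5 of 11 cytosolic and 4 of 14 mitochondrial genes, beside 8.86% of all windows. The E-box CACGTG, a MYC-type element, lay in 3 and 1 of them, beside 7.15%.

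No synthetase gene passed the test between the groups. Of the 34 genes 0 were called by limma at an adjusted p under 0.05, in a comparison that called 24 of 13956 genes, or 0.172%, all of them higher in the UV-donor group. That background count fell to 1 without naive-donor replicate 1, UV-donor replicate 2 or UV-donor replicate 3, and to 3 without naive-donor replicate 3. At an unadjusted p under 0.05 limma gave 2 synthetase genes, Wars and Rars, both lower in value, while 766 of all tested genes (5.49%) were lower and 1340 (9.6%) higher at that level. Most cytosolic genes, 13 of 18, had lower values on UV-donor arrays, with a median log2 difference of -0.082, and the mitochondrial genes were split, 10 higher and 6 lower, with a median of 0.022. Over all tested genes 49.4% had lower values and the median was 0.0016. With quantile normalization 16 cytosolic genes had lower values and the mitochondrial genes turned to 6 higher, with a median of -0.013. The mitochondrial genes thus had no direction that held across scalings, though their median was positive in 15 of 16 alternatives run. The cytosolic median was negative in all 16. Several of these cannot move a median, among them the replicate block, the dim filters and the intensity trend, which left it at -0.082. With single arrays left out it ran from -0.14 to -0.029.

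**Figure D1:**
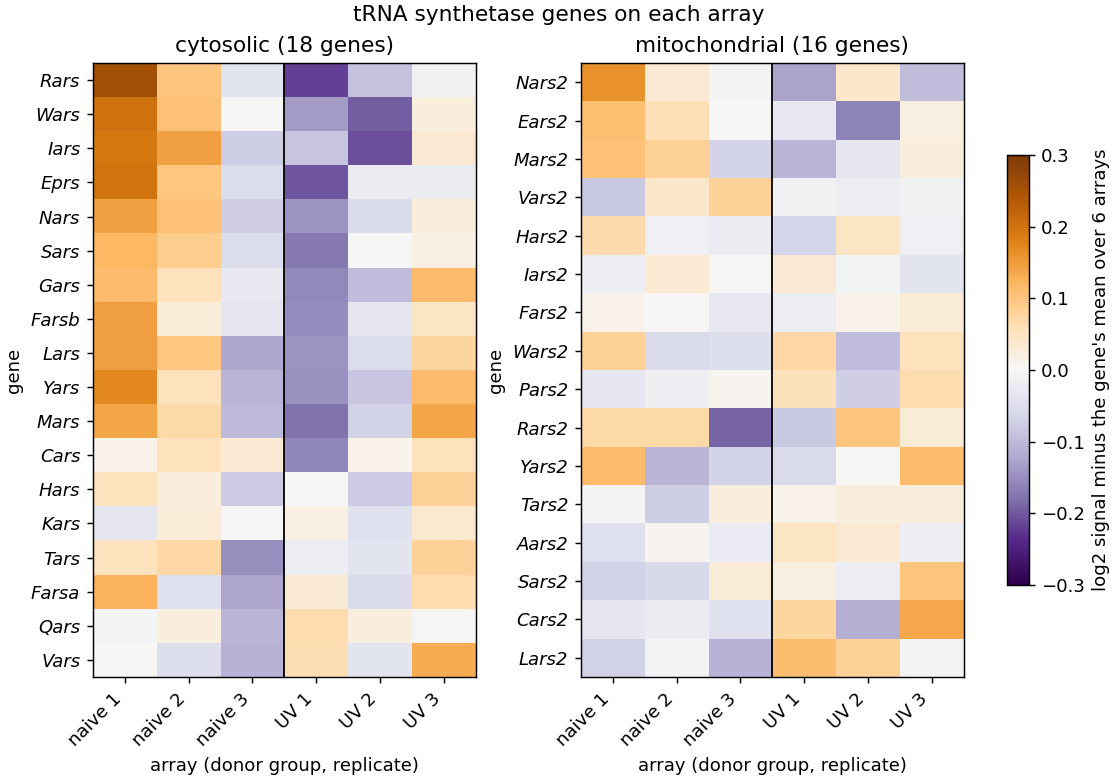
Log2 signal of each synthetase gene minus its own mean over 6 arrays (colour, orange above and purple below the mean), with 1 column per array and 1 row per gene, ordered by the difference between groups. Among the 18 cytosolic genes naive-donor replicate 1 is the highest array in 10 and UV-donor replicate 3 in 7, and UV-donor replicate 1 is the lowest in 10, against 5, 5 and 3 of the 16 mitochondrial genes.

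Wars, the cytosolic tryptophanyl-tRNA synthetase and a known interferon-gamma-inducible gene, had the smallest p of the family (probe set 10402585). Its log2 signal was 12.28, 12.18 and 12.08 on the naive-donor arrays and 11.94, 11.88 and 12.10 on the UV-donor arrays. UV-donor replicates 1 and 2 lay below every naive-donor array, and UV-donor replicate 3 lay within their range. The groups differed by -0.21 (95% interval -0.38 to -0.035, SE 0.074, limma adjusted p = 0.258), a signal 1.15-fold lower.

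Rars, which charges arginine and sits in the multisynthetase complex (probe set 10385159), read 12.56, 12.40 and 12.26 on naive-donor arrays and 12.08, 12.21 and 12.29 on UV-donor arrays. Here UV-donor replicate 3 overlapped naive-donor replicate 3 by a small margin, and UV-donor replicate 1 was lowest. The groups differed by -0.21 (95% interval -0.41 to -0.022, SE 0.084, limma adjusted p = 0.283).

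Eprs, the fused glutamyl- and prolyl-tRNA synthetase (probe set 10352514), read 11.31, 11.21 and 11.06 against 10.91, 11.09 and 11.09. Iars, the isoleucine enzyme of the same complex (probe set 10345025), read 12.30, 12.25 and 12.03 against 12.02, 11.90 and 12.14. In both genes naive-donor replicate 3 fell among the UV-donor arrays. The differences were -0.16 (SE 0.079, limma adjusted p = 0.373) for Eprs and -0.18 (SE 0.087, limma adjusted p = 0.382) for Iars. Iars had another probe set, whose difference was -0.10 and which was likewise highest on naive-donor replicate 1.

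Nars, the asparagine enzyme (probe set 10459405), read 12.32, 12.28 and 12.10 against 12.03, 12.12 and 12.20, a difference of -0.11 (limma adjusted p = 0.494). Gars (probe set 10538420) read 11.87, 11.81 and 11.73 against 11.60, 11.66 and 11.87, and its difference was -0.092 (limma adjusted p = 0.604). UV-donor replicate 3 equalled the highest naive-donor array in Gars at this precision. The remaining cytosolic genes with lower values were Sars (-0.10), Farsb (-0.092), Lars (-0.083), Yars (-0.082), Mars (-0.075), named Mars1 in the annotation, and Cars (-0.059), all with overlapping groups. Hars, counted among the 13, differed by only -5.4e-05.

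Vars, the valine enzyme (probe set 10444605), was the cytosolic gene with the largest difference in the other direction. It read 10.61, 10.56 and 10.50 against 10.67, 10.57 and 10.74, differing by 0.10 (95% interval -0.035 to 0.24, SE 0.06, limma adjusted p = 0.448), and UV-donor replicate 2 lay inside the naive-donor range. Kars, whose gene makes the lysine enzyme of both compartments, had a narrow spread on all arrays. Its values were 11.26, 11.32 and 11.29 against 11.31, 11.25 and 11.33, and the difference of 0.0083 (limma adjusted p = 0.952, 95% interval -0.099 to 0.12) is one whose sign turned with quantile normalization and cyclic loess. Qars (0.059), Farsa (0.027) and Tars (0.015) completed the cytosolic genes with higher values. The subunits of phenylalanyl-tRNA synthetase thus had differences of opposite sign, Farsa at 0.027 and Farsb at -0.092, each with an interval that spanned 0.

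**Figure D2:**
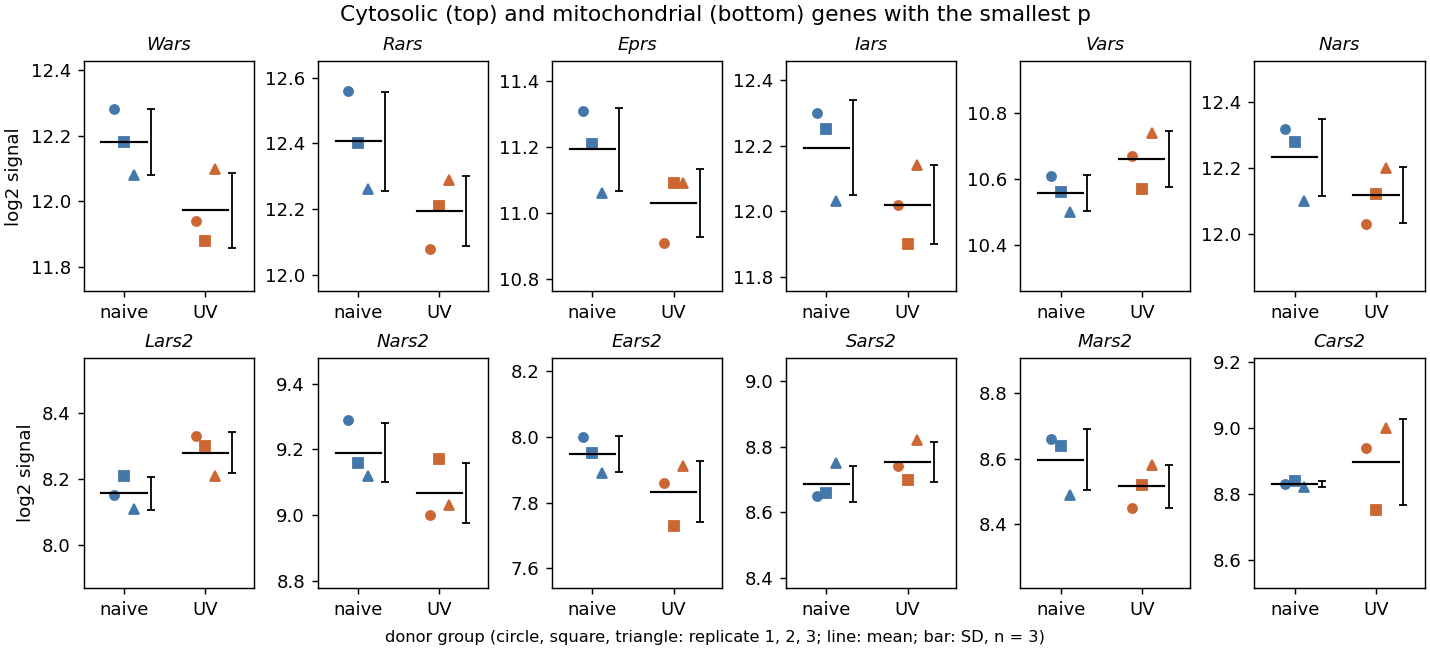
Log2 signal (y axis, the same span in every panel) of the 6 cytosolic and 6 mitochondrial genes of smallest p, with 1 symbol per array, the group mean as a line and the SD (n = 3) as a bar. The groups overlap in every panel except that of Lars2, and in Cars2 the naive-donor arrays lie inside the UV-donor range.

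Membership of the multisynthetase complex, which binds several cytosolic synthetases into one particle, did not separate the cytosolic genes by size of difference. The 7 measured genes of the complex had a median difference of -0.083 (5 of 7 lower) and the 11 others a median of -0.082 (8 of 11 lower). Synthetases fall into class I and class II by the fold of their catalytic domain. The 9 class I genes had a median of -0.082 (7 lower) and the 8 class II genes a median of -0.046 (5 lower), leaving out Eprs, which holds a domain of each. Genes with the response element core in their window (4 measured) had a median of -0.087 and a range of -0.18 to 0.015. The 7 with a window used and no match had a median of -0.075 and a range of -0.16 to 0.059. For the other 7, Cars, Hars, Lars, Nars, Rars, Vars and Wars, no window was used here, and their median was -0.083 with a range of -0.21 to 0.10, so the search did not cover the genes of smallest p, Wars and Rars.

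Lars2, the mitochondrial leucyl-tRNA synthetase (probe set 10590563), had the smallest p among the mitochondrial genes. It read 8.15, 8.21 and 8.11 on the naive-donor and 8.33, 8.30 and 8.21 on the UV-donor arrays. Lars2 was the 1 synthetase gene of 34 whose groups did not overlap, UV-donor replicate 3 exceeding naive-donor replicate 2 by less than the 2 decimals shown, while 12.4% of all tested genes were higher and 9.37% lower without overlap, 21.8% in all. The groups differed by 0.12 (95% interval -0.0014 to 0.24, SE 0.052, limma adjusted p = 0.336).

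Nars2, for asparagine (probe set 10555011), read 9.29, 9.16 and 9.12 against 9.0, 9.17 and 9.03, a difference of -0.13 (limma adjusted p = 0.395). Ears2, which charges mitochondrial glutamate tRNA and, as the first step of an indirect route, glutamine tRNA (probe set 10567645), read 8.00, 7.95 and 7.89 against 7.86, 7.73 and 7.91, a difference of -0.12 (limma adjusted p = 0.401). In each of these genes 1 UV-donor array lay within the naive-donor range, replicate 2 in Nars2 and replicate 3 in Ears2. Mars2, for methionine (probe set 10346323), read 8.66, 8.64 and 8.49 against 8.45, 8.52 and 8.58, a difference of -0.078 (limma adjusted p = 0.584).

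Sars2, for serine (probe set 10551554), read 8.65, 8.66 and 8.75 against 8.74, 8.70 and 8.82, and Cars2, for cysteine (probe set 10577030), read 8.83, 8.84 and 8.82 against 8.94, 8.75 and 9.0. Both had a difference of 0.067, with limma adjusted p-values of 0.583 and 0.678. The naive-donor arrays of Cars2 were nearly identical (SD 0.0116) while its UV-donor arrays spread around them (SD 0.132). Wars2, the mitochondrial counterpart of Wars (probe set 10494664), read 8.81, 8.67 and 8.68 against 8.80, 8.63 and 8.78. It differed by 0.017 (limma adjusted p = 0.929, 95% interval -0.13 to 0.16), which turned negative with quantile normalization and cyclic loess. Yars2 (0.045), Tars2 (0.044), Aars2 (0.042), Rars2 (0.034), Pars2 (0.028), Fars2 (0.011), Iars2 (-0.012), Hars2 (-0.021) and Vars2 (-0.024) had differences close to 0. The 95% intervals of all 16 mitochondrial genes lay between -0.28 and 0.24. These were taken gene by gene, without adjustment, and rest on an error that may be technical only.

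**Figure D3:**
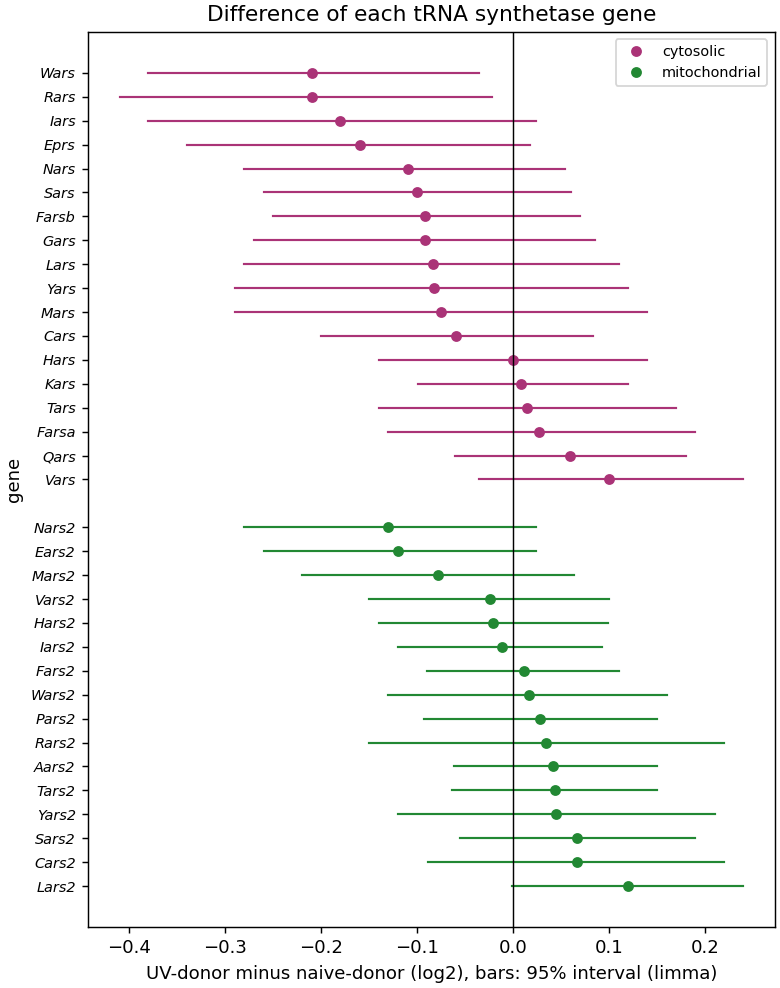
Difference between UV-donor and naive-donor means (x axis, log2) for each of 34 genes (y axis), with the 95% interval from limma as a bar, cytosolic genes above and mitochondrial genes below. The intervals of Wars and Rars exclude 0 before adjustment, and no gene passed after it.

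Setting cytosolic enzymes of a single amino acid beside the mitochondrial enzyme for the same one gave 14 pairs over 13 amino acids. Eprs (-0.16), which charges glutamate and proline, was not paired with Ears2 (-0.12) or Pars2 (0.028). The cytosolic difference was the lower one in 9 of 14 pairs, with a median gap of -0.11. Arginine had the widest gap, at -0.21 for Rars and 0.034 for Rars2, followed by tryptophan, at -0.21 for Wars and 0.017 for Wars2, and leucine, at -0.083 for Lars and 0.12 for Lars2. Methionine (-0.075 and -0.078) and asparagine (-0.11 and -0.13) had nearly the same difference in both compartments, and valine went the other way (0.10 and -0.024). Hars and Hars2, neighbouring genes in the RefSeq table of GRCm38.p6, both lay near 0. These pairs share arrays and are described without a test.

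The spread among arrays of 1 group was as large as the difference between groups. In 16 of 18 cytosolic genes the range of the 3 naive-donor arrays exceeded the difference between group means, as it did in 13 of 16 mitochondrial genes and in 10408 of 13956 genes overall. That range had a median of 0.20 in the cytosolic genes, 0.099 in the mitochondrial genes and 0.12 over all tested genes. The mitochondrial genes had lower signals, with naive-donor means of 7.95 (Ears2) to 10.38 (Iars2) against 9.11 (Tars) to 12.41 (Rars). Whether signal level bears on the spread was not tested. The cytosolic genes varied together. Naive-donor replicate 1 was the highest naive-donor array in 14 of 18 and UV-donor replicate 3 the highest UV-donor array in 17 of 18, whereas the corresponding counts in the mitochondrial genes were 7 and 8 of 16. UV-donor replicate 1 was the lowest of all 6 arrays in 10 cytosolic genes.

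The mean of the cytosolic genes, each centred on its own 6-array mean, was 0.11, 0.06 and -0.07 on the naive-donor arrays and -0.10, -0.06 and 0.06 on the UV-donor arrays. The groups overlapped, with naive-donor replicate 3 at the level of UV-donor replicates 1 and 2 and UV-donor replicate 3 at that of naive-donor replicate 2. The mitochondrial mean stayed between -0.03 and 0.025. Cytosolic minus mitochondrial, which cancels a shift common to both, averaged 0.038 ± 0.0671 (SD, n = 3) over naive-donor arrays and -0.038 ± 0.0639 (SD, n = 3) over UV-donor arrays. Its difference of -0.075 is close to either SD. The median cytosolic difference fell in size to -0.034 without naive-donor replicate 1 and to -0.029 without UV-donor replicate 1. Leaving out replicate 3 of either group widened it to -0.14.

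Genes of the amino acid response resembled the cytosolic synthetases in which arrays were high and low. The list of 33 such genes holds ATF4 itself, amino acid transporters and enzymes of serine, proline and asparagine synthesis, and no aminoacyl-tRNA synthetase. Of 32 tested, 30 were lower in value on UV-donor arrays, with a median difference of -0.11 against 0.0016 over all genes. Limma called 0 of them. At an unadjusted p under 0.05 it gave 1 of them, lower, beside 5.49% of all tested genes lower. The list mean was 0.18, 0.08 and -0.08 on the naive-donor arrays and -0.12, -0.14 and 0.09 on the UV-donor arrays, so here too replicate 3 of each group lay among the arrays of the other. Naive-donor replicate 1 was the highest of all arrays in 24 of 32 genes. The median was -0.058 without naive-donor replicate 1, and -0.073 without UV-donor replicate 1. Leaving out naive-donor replicate 3 gave -0.18. Both lists were read on the same arrays, and their likeness across 6 arrays was not tested.

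Among single genes of that list, Atf4 read 10.71, 10.62 and 10.61 against 10.38, 10.44 and 10.65, a difference of -0.16 (limma adjusted p = 0.364). UV-donor replicate 3 again lay within the naive-donor range. Ddit3, the stress factor CHOP, differed by -0.25 (limma adjusted p = 0.333) and Slc7a11, the cystine transporter, by -0.15 (limma adjusted p = 0.33). Asns, whose element is printed above and which was chosen for that reason after its values were seen, read 12.56, 12.49 and 12.23 against 12.12, 12.14 and 12.40, a difference of -0.21 (limma adjusted p = 0.389).

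**Figure D4:**
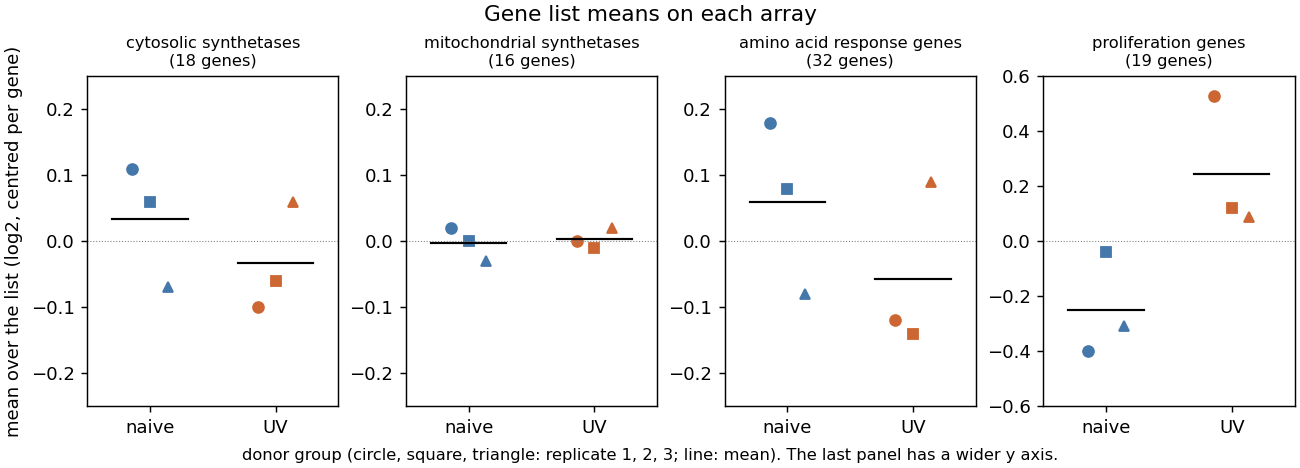
Mean log2 signal of each gene list on each array after centring every gene on its 6-array mean (y axis, wider in the last panel), by donor group, with 1 symbol per replicate and the group mean as a line. Cytosolic synthetases and amino acid response genes both have naive-donor replicate 1 highest and replicate 3 of each group inside the other group's range, mitochondrial synthetases stay near 0, and proliferation genes separate the groups.

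Other parts of the charging and translation machinery held no gene called by limma either. Across the 5 lists of this and the next paragraph, with 17, 12, 6, 11 and 19 tested genes, 5 had an unadjusted p under 0.05. Of these 3 were higher and 2 lower. At that level limma gave 15.1% of all tested genes. Of 17 tested partners and accessories of the synthetases 9 had higher and 8 lower values (median 0.011). Xpot, which exports tRNA from the nucleus, read 10.96, 10.88 and 10.74 against 10.47, 10.69 and 10.77, a difference of -0.22 (limma adjusted p = 0.301), and UV-donor replicate 3 lay above naive-donor replicate 3. Gatc, a subunit of the mitochondrial glutamine amidotransferase that acts after Ears2, differed by -0.15, and Dtd2, a proofreading deacylase, by -0.082 without overlap of the groups. Without overlap 0 of these 17 genes were higher and 1 was lower, beside 12.4% and 9.37% of all tested genes. The list of eIF2 and its kinases also held Eif2b genes, Gcn1l1 and Impact, which are neither. Its 12 tested genes were split 6 to 6 (median 0.007), led by Eif2s2 (-0.12), Impact (-0.13) and Eif2b2 (-0.14).

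Cytosolic elongation factors had 4 of 6 higher values (median 0.0066), with Eef1d at 0.08, Eef1b2 at 0.024 and Eef1a1, which delivers charged tRNA to the ribosome, at 0.0098. The list of mitochondrial translation factors also held genes of mitochondrial transcription and RNA, among them Mterf3. It had 7 of 11 higher values (median 0.04), led by Mterf3 (-0.14), Mtrf1l (0.14) and the elongation factor Gfm1 (0.12). Genes of RNA polymerase III and its factors, which transcribe tRNA, had higher values in 15 of 19 (median 0.047). Gtf3c5 (0.15, limma adjusted p = 0.195) and Gtf3c4 (0.16, limma adjusted p = 0.23), subunits of TFIIIC, had groups that did not overlap, as did Polr3f (0.13). In the polymerase III list 4 of 19 genes were higher without overlap, beside 12.4% of all tested genes.

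MYC and interferon-gamma are both known to act on synthetase genes. MYC and growth control genes had higher values in 12 of 16 and lower in 4 (median 0.036), with none called by limma. At an unadjusted p under 0.05 limma gave 2 of them higher, beside 9.6% of all tested genes. Myc itself read 11.11, 11.14 and 10.95 against 11.32, 11.27 and 11.43, every UV-donor array above every naive-donor array, a difference of 0.27 (limma adjusted p = 0.157). In this list 4 of 16 genes were higher without overlap of the groups, beside 12.4% of all tested genes. Fbl, a nucleolar methyltransferase, differed by 0.12 and Mxd1, a MYC antagonist, by 0.17. Of 16 tested interferon-gamma response genes 11 had higher and 5 lower values (median 0.057) and none was called by limma, with 4 higher and 1 lower at that level. The 3 of smallest p were Ciita (0.49), which is also among the dendritic cell markers above, Psmb9 (0.15) and Socs1 (0.13).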

How the data were processed

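The deposited table holds log2 signals for 35556 probe sets on 6 arrays, running from 2.52 to 14.6. RMA, oligo and limma are named in the submitters' processing notes, without versions or order, and the summary level is not given in the sources used here. No scan date or batch is given. Values were used as deposited. Genes were named by the platform annotation, in which 21789 probe sets had 1 symbol, 1621 several and 12146 were not listed. The 1-symbol probe set of highest mean stood for a gene, and genes below the 30th percentile of the mean were left out.

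UV-donor minus naive-donor differences were fitted over all 13956 genes in R 4.3.3 with lmFit and eBayes of limma 3.58.1 (two-sided). Genes under 0.05 after Benjamini-Hochberg adjustment over all genes were called. With 3 arrays a group, the smallest exact permutation p is 0.1. Lists were described by counts and medians, without a test. The fit was tested on simulated data. Members and lists were chosen with earlier results of these data known. Array values are given for the 6 genes of smallest p per compartment and for Wars, Wars2, Kars and Gars, and 3 genes are named per related list. Xpot, Atf4 and Myc were given by array as leading members of theirs. The number of arrays limits the precision. Figures used matplotlib 3.10.9.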

Additional observations from a re-analysis of the deposited data

How the results depend on the processing

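The count of 0 called synthetase genes held in all 16 other fits, among them other dim filters, 3 scalings, array weights, an intensity trend and leaving out each array, and at an adjusted p under 0.10. At an unadjusted p under 0.05 it was 2. Over all genes the count of 24 calls ran at an adjusted p under 0.05 from 0 (all probe sets tested, or replicate block) to 45 (intensity trend), with 1 to 32 when single arrays were left out, and it was 70 at an adjusted p under 0.10. The cytosolic median ran from -0.14 to -0.029 with single arrays left out. The mitochondrial median moved to 0.057 with array medians centred and to -0.013 with quantile normalization. The cytosolic minus mitochondrial gap was negative in all 16 fits, at -0.11 to -0.047. Of 240 values for the 15 named genes 230 kept their direction and none became a call. Several fits, among them the replicate block, the dim filters and the intensity trend, leave every member's difference unchanged. Their agreement in direction was fixed in advance. Kars turned to -0.0038 with cyclic loess, -0.00034 with quantile normalization, and ranged from -0.0084 to 0.03 with single arrays left out (negative without naive-donor replicate 1 or UV-donor replicate 3). Wars2 turned to -0.0012 with cyclic loess, -0.02 with quantile normalization, and ranged from -0.016 to 0.071 with single arrays left out (negative without naive-donor replicate 2 or 3 or UV-donor replicate 1 or 3). The cause was not tested. Counts of genes by sign and the amino acid response list were rerun as alternatives chosen after seeing the data.

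Same-numbered arrays of the groups were treated as unpaired in the main fit. Their deviations from group means had correlations of -0.13, -0.22 and 0.15, which cannot show whether the preparations were paired. A replicate block gave 0 called synthetase genes by limma, but it also called 0 of all 13956 tested genes. With every replicate number in both groups the block cannot change a difference between group means. The cytosolic and mitochondrial medians therefore stayed at -0.082 and 0.022.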
